A study of Homo sapiens with 4 samples.

Results

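BLK, PAX5, CD22 and FCRL1 are genes of the B-lymphocyte lineage, and they are described here in HUT78, an established human cell line of cutaneous T-cell lymphoma (CTCL). The members were taken by symbol, as the probe sets that the platform annotation assigns to these 4 genes. Each gene had 1 such probe set, so 4 probe sets stand for 4 of the 14884 genes named on the array and for 4 of its 53617 probe sets.

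Total RNA had been hybridised to 4 Affymetrix whole-transcript arrays. Cells of 2 arrays had received the compound CSH71, which the series presents as a chemical against the lipid-binding domain of p38γ, at 250 nM for 30 h, and cells of the other 2 arrays were untreated, with no vehicle named. HUT78 is 1 line, and both groups are that line in serum-containing medium, so the values describe 1 CTCL background. The labels do not state that replicates were separate cultures, so a p-value reflects the spread among these 4 samples alone, and that spread may be technical.

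PAX5 is the transcription factor that commits progenitors to the B-cell fate, switching on genes of the B-cell receptor and switching off genes of other lineages. BLK is a Src-family tyrosine kinase that signals below the B-cell receptor. It is known as a kinase that malignant T cells of CTCL express although it belongs to another lineage. CD22 is a sialic acid-binding lectin of the Siglec family that restrains B-cell receptor signals, and FCRL1 is an Fc receptor-like surface protein that enhances them.

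The start-site windows of the members are shown because they are the stretches in which letters read by B-lineage regulators, and by the stimulus-responsive factor AP-1, can be looked for. Each holds 250 bases before and 50 bases after the gene's start, read 5′ to 3′ along the gene, from RefSeq on GRCh38.p14. Of the 4 members 3 had an entry: PAX5 at chr9:37034219-37034518 on the minus strand, CD22 at chr19:35328937-35329236 on the plus strand and FCRL1 at chr1:157820071-157820370 on the minus strand. Capitals mark matches, on either strand, to the 5 motifs that were searched.
PAX5: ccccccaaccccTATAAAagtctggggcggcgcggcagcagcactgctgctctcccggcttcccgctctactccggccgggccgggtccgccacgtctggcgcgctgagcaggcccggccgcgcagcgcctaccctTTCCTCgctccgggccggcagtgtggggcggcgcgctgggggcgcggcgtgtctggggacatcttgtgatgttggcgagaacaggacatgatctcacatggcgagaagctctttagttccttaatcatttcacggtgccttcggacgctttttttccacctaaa
CD22: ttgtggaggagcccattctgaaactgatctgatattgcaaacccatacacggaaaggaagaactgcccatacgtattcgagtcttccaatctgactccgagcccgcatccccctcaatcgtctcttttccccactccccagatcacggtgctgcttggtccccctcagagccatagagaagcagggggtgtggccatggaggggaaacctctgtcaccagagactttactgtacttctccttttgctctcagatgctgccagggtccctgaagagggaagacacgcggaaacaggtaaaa
FCRL1: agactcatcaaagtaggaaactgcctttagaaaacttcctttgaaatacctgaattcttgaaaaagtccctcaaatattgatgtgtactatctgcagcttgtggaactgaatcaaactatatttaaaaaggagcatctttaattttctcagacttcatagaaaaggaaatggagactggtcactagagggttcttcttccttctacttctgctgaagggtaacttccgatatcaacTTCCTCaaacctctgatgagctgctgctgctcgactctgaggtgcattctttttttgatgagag

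The motifs were TGACTCA for AP-1 and ATTTGCAT for the octamer bound by POU2F2 and its partners. The others were GAGGAA for the PU.1 form of the ETS core, CCCNNGGG for the EBF core and TATAAA for the TATA box. The shorter GGAA core shared by ETS factors was not searched for. No match of one motif overlapped a match of another. The PAX5 window held 1 GAGGAA match on the opposite strand at position -114 and 1 TATAAA match at position -238, counting the base before the start as -1. The FCRL1 window held 1 GAGGAA match on the opposite strand at position -14. The CD22 window held 0 matches to these 5 motifs, and 0 of the 3 windows held the AP-1, octamer or EBF letters. Of the 35116 windows in the table, 27.9% held GAGGAA, 19.1% CCCNNGGG, 11.5% TATAAA, 4.95% TGACTCA and 1.77% ATTTGCAT. A match is a run of letters and not a binding site.

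All 4 genes gave a signal above 0 on each array, and for 0 of the 4 did CSH71 and untreated cells differ past the threshold, a limma adjusted p of 0.05 over all genes. At a limma unadjusted p under 0.05 there were also 0 of the 4, against 5.1% of all genes. The point estimates were all below 0, from -0.31 for BLK to -0.093 for CD22 on the log2 scale. CSH71 arrays lay below untreated arrays without overlap for BLK and FCRL1, and the groups overlapped for PAX5 and CD22. Of all genes, 16.6% had CSH71 lower without overlap. Signals are the linear intensities the authors deposited, and fold changes are CSH71 over untreated on the log2(intensity + 16) scale, which understates changes of dim genes. The table carries no detection call and each probe set has its own probes, so intensities are read across arrays within a gene, and no gene is described as present or absent.

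BLK had intensities of 272 and 256 in CSH71-treated cells, against 318 and 347 in untreated cells. Both treated arrays were below both untreated arrays, and the gap between the groups was wider than the gap within either. The means were 264 ± 11.2 in CSH71-treated and 333 ± 20.1 in untreated cells (SD, n = 2 each). That gave a log2 fold change of -0.31 ± 0.17 (SE; 95% interval from -0.71 to 0.087), which missed the threshold (limma adjusted p = 0.999, unadjusted p = 0.107). With each array left out in turn it stayed between -0.37 and -0.25.

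PAX5 had 142 and 187 in CSH71-treated cells, against 203 and 171 in untreated cells. The groups overlapped, since treated replicate 2 was above untreated replicate 2. The means were 165 ± 32.2 and 187 ± 22.5 in CSH71-treated and untreated cells (SD, n = 2 each), a log2 fold change of -0.18 ± 0.20 (95% interval from -0.65 to 0.30, limma adjusted p = 0.999). It came to 0.0065 without CSH71 replicate 1 and to -0.36 without CSH71 replicate 2, so its sign rested on 1 array.

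CD22 had 186 and 267 in CSH71-treated cells, against 300 and 189 in untreated cells. This was the widest spread between replicates among the 4 genes, 0.49 and 0.63 on the log2 scale in treated and untreated cells, where the median gene of the array had 0.19 and 0.22. The means were 226 ± 57.2 and 245 ± 78.9 in CSH71-treated and untreated cells (SD, n = 2 each), a log2 fold change of -0.093 ± 0.27 (95% interval from -0.73 to 0.55, limma adjusted p = 0.999). It was 0.22 without untreated replicate 1, 0.15 without CSH71 replicate 1, -0.34 without CSH71 replicate 2 and -0.41 without untreated replicate 2. No direction can be given for CD22.

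FCRL1 had 82.5 and 88.5 in CSH71-treated cells, against 96.4 and 92.4 in untreated cells. The 4 values were close together, with replicate gaps of 0.085 and 0.052 on the log2 scale in treated and untreated cells, and the treated arrays were both lower. The means were 85.5 ± 4.21 and 94.4 ± 2.81 in CSH71-treated and untreated cells (SD, n = 2 each). The estimate was -0.12 ± 0.17 on the log2 scale (95% interval from -0.52 to 0.27, limma adjusted p = 0.999). For this and every gene, limma draws the SE, interval and p partly from the spread of all genes. The SE is therefore not the replicate error of FCRL1 alone.

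**Figure D1:**
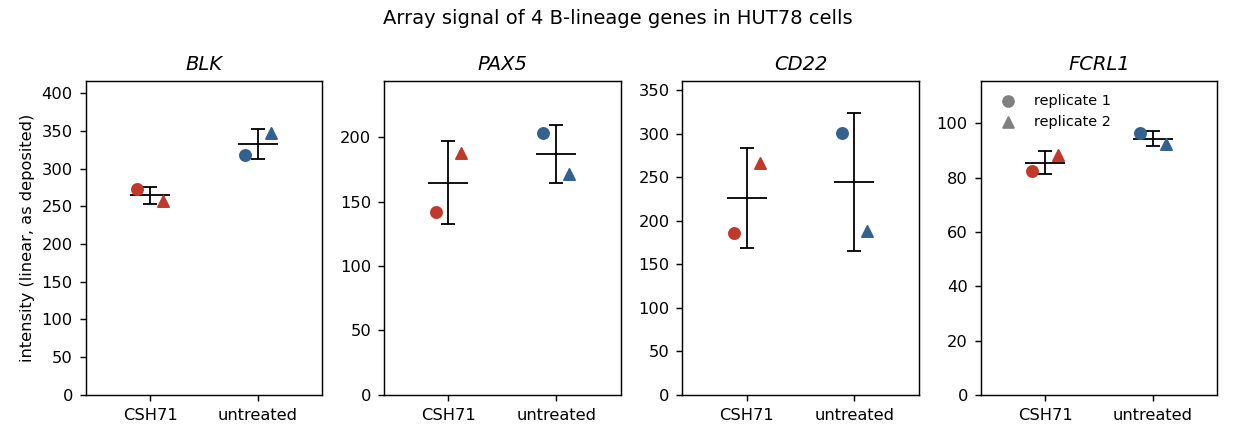
Linear array intensity of BLK, PAX5, CD22 and FCRL1 in CSH71-treated and untreated HUT78 cells, 1 point per array (circle replicate 1, triangle replicate 2), with the group mean and SD as a bar (n = 2 each) and a separate axis from 0 for each gene. BLK and FCRL1 have both treated points below both untreated points, and PAX5 and CD22 overlap.

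Over the whole table, limma called 7 genes, which is 0.047% of those tested, so 0 calls among 4 genes is near the background. Groups without overlap were found for 31.6% of all genes in either direction, for 16.6% with CSH71 lower and for 15% with CSH71 higher, against 2 of the 4 members, both lower. The median log2 fold change was -0.15 over the 4 members and -0.010 over all genes, and 52% of all genes had a negative one. A 2-fold difference of the measured signal in either direction lay outside the 95% interval of each member. Without untreated replicate 2 the interval of CD22 ran from -1.09 to 0.28 on the log2 scale, which takes in a 2-fold lower signal. Because no background level is given, these intervals bound the signal and not the RNA.

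The PAX5 and CD22 arrays shared an order that crossed the groups: CSH71 replicate 2 was above replicate 1, and untreated replicate 1 was above replicate 2. That order was seen in 26.6% of all genes, in 40.1% of those dimmer than the median gene and in 13.2% of those brighter. PAX5 and CD22 were among the brighter genes, with mean intensities of 176 and 235 against 139 for the median gene. FCRL1, at 89.9, was among the dimmer. The median over all probe sets of each array had it too, at 73.6 and 81.1 for CSH71 replicates 1 and 2 and 77.5 and 71.5 for untreated replicates 1 and 2. So did the summed signal of 19 measured genes restricted to non-lymphoid tissues, at 1591 and 1697 in CSH71-treated and 1762 and 1511 in untreated cells. The part of this array pattern in the PAX5 and CD22 values was not tested. BLK did not have the order, since its treated replicate 2 and untreated replicate 1 were each the lower of their pair, and FCRL1 did.

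**Figure D2:**
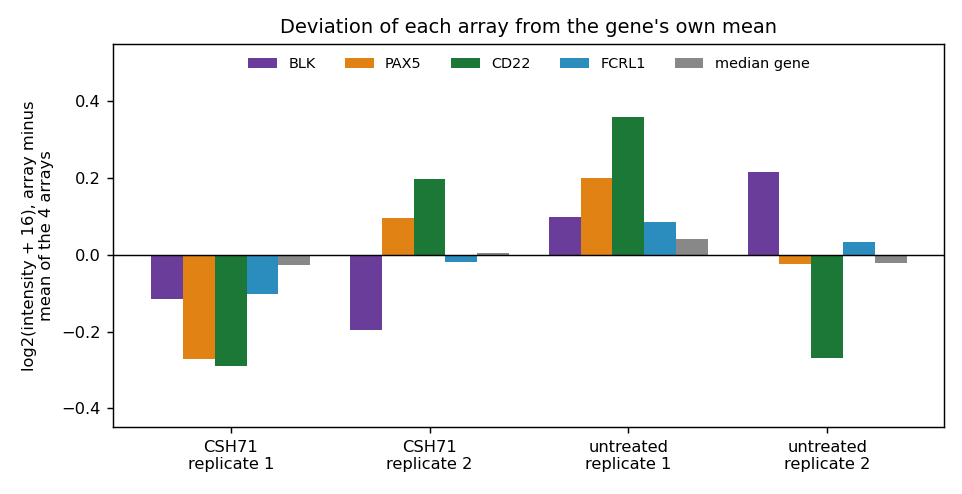
Deviation of each array from the gene's own mean over the 4 arrays, in log2(intensity + 16), for the 4 genes and for the median of all genes (grey). CD22 runs from -0.29 on CSH71 replicate 1 to 0.36 on untreated replicate 1, PAX5 has the same order with smaller deviations, and BLK is below 0 on both treated arrays and above 0 on both untreated arrays.

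Each member was then set beside its own protein family. In this and the following lists limma called 0 genes, and those with an unadjusted p under 0.05 were YES1, SIGLEC14, BCL6, IKZF3, SH3BP5, STAT4 and SATB1. The lists held, with the members, 138 measured genes, and 5.1% of all genes on the array had such a p. Among Src-family kinases 7 of 9 listed genes were measured, and 0 passed the threshold in either direction. Their median log2 fold change was -0.058 with BLK and -0.010 without it. LYN, the kinase that starts the B-cell receptor signal, had 62.2 and 92.7 in CSH71-treated cells, against 112 and 101 in untreated cells, a log2 fold change of -0.41 ± 0.21. LCK, the Src-family kinase of the T-cell receptor, had 1157 and 1057 in CSH71-treated cells, against 1018 and 1141 in untreated cells (0.037 ± 0.17). Treated cells thus overlapped untreated cells for LCK and lay below them for LYN. The log2 fold change of LYN was -0.17 without CSH71 replicate 1 and -0.64 without CSH71 replicate 2.

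YES1, a broadly expressed member, had 712 and 663 in CSH71-treated cells, against 418 and 516 in untreated cells. Its treated arrays were both higher, with a log2 fold change of 0.55 ± 0.18 that did not pass (limma adjusted p = 0.928, unadjusted p = 0.0207). Of the other kinases, FGR, known from myeloid cells, was at -0.17, SRC at -0.058 and FRK at 0.083. FYN was not analysed here.

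In the PAX family 8 of 9 listed genes were measured, and 0 passed. PAX3, a factor of neural crest and muscle, had the highest log2 fold change at 0.47 ± 0.25, with 175 and 285 in CSH71-treated and 143 and 172 in untreated cells, and PAX5 the lowest. The value of PAX3 was 0.80 without CSH71 replicate 1 and 0.14 without CSH71 replicate 2. PAX7 was at 0.28, PAX1 at 0.090, PAX9 at -0.033, PAX8 at -0.058 and PAX2 at -0.075. PAX6, an eye and brain factor, lay between 10.5 and 15.5 on all 4 arrays with a log2 fold change of 0.0042.

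In the Siglec family 12 of 14 listed genes were measured, and 0 passed, with a median log2 fold change of -0.13 and 8 of 12 below 0. The extremes were SIGLEC14 at 0.56 ± 0.19 (limma adjusted p = 0.928) and SIGLEC7, an inhibitory receptor of natural killer cells, at -0.43 ± 0.21. SIGLEC14 had 56.4 and 75.9 in CSH71-treated cells, against 40.8 and 37.8 in untreated cells. It shares near-identical sequence with SIGLEC5, which was at -0.26, so signal of the pair may be mixed. SIGLEC10, another Siglec of B cells, was at -0.034, with the array order of CD22: 243 and 308 in CSH71-treated cells, against 309 and 254 in untreated cells. Between these lay SIGLEC12 at 0.48, SIGLEC15 at 0.084, SIGLEC9 at 0.073, SIGLEC11 at -0.17, SIGLEC8 at -0.23, MAG at -0.25 and SIGLEC6 at -0.34.

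The FCRL family was measured in full, with 8 of 8 genes, and 0 passed. The median log2 fold change was -0.12, with FCRL1 itself at -0.12. FCRL2 and FCRL3, both at -0.13, FCRL5 at -0.23 and FCRL4 at -0.26 were below 0, and the intracellular members FCRLA at 0.18 and FCRLB at 0.12 were above it, as was FCRL6, a receptor of cytotoxic lymphocytes, at 0.22. FCRL4 had 186 and 188 in CSH71-treated cells, against 289 and 177 in untreated cells, so its estimate rested on untreated replicate 1.

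**Figure D3:**
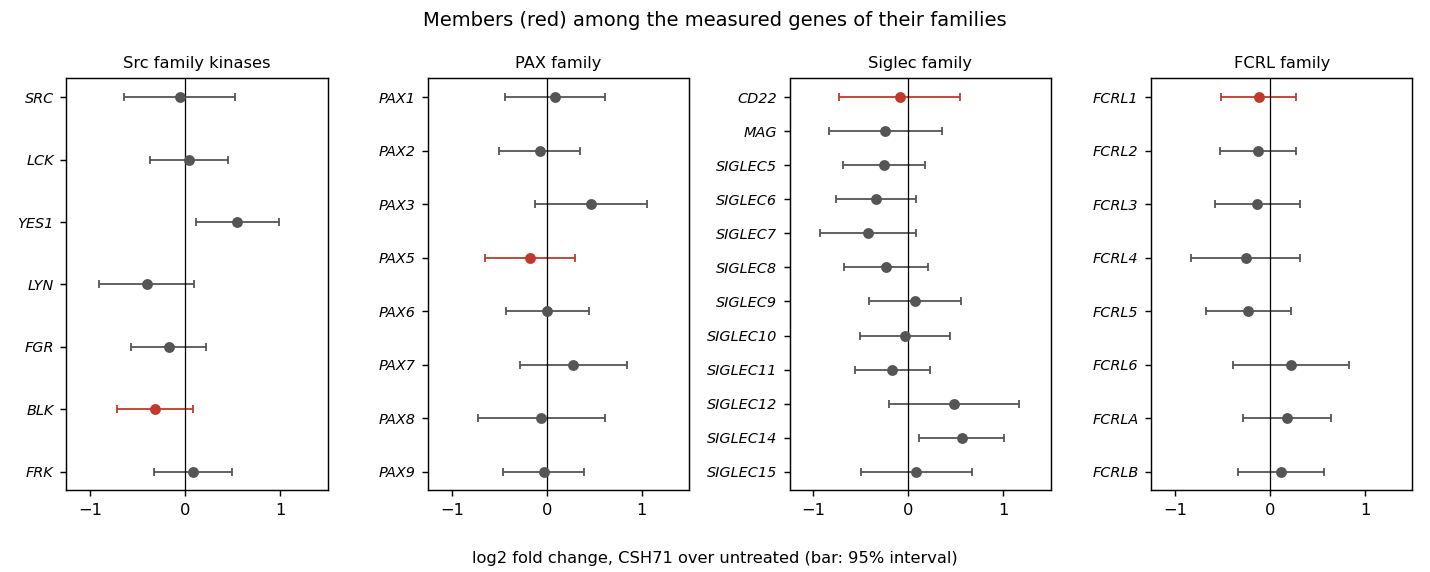
Log2 fold change of CSH71 over untreated, with the 95% interval from limma, for the measured genes of the Src, PAX, Siglec and FCRL families, members in red. The members' intervals span 0, and YES1 and SIGLEC14 have unadjusted intervals above 0.

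Genes that act with the members in B cells showed the same lack of calls. Of 17 listed B-lineage transcription factors 16 were measured, 0 passed, and the median log2 fold change was 0.029. EBF1, which acts with PAX5 in early B cells, had 131 and 171 in CSH71-treated cells, against 162 and 112 in untreated cells (0.14 ± 0.23), again in the array order of PAX5. The ends of the list were BCL6, the repressor of the germinal centre, and IKZF3, a zinc-finger factor of lymphocytes, and neither is confined to B cells.

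BCL6 had 174 on both CSH71 arrays, against 103 and 118 in untreated cells, a log2 fold change of 0.59 ± 0.17. IKZF3 had 98.0 and 75.9 in CSH71-treated cells, against 113 and 175 in untreated cells, a log2 fold change of -0.62 ± 0.24. The limma adjusted p was 0.928 for BCL6 and 0.946 for IKZF3. Without untreated replicate 2 the log2 fold change of IKZF3 was -0.34 (limma unadjusted p = 0.212), and without untreated replicate 1 it was -0.90. These 2 genes had an unadjusted p under 0.05, in a list of 16, where 5.1% of all genes did.

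B-cell surface and receptor genes were measured for 18 of 31 listed, with 0 past the threshold and a median log2 fold change of -0.087. CR2, the complement receptor that lowers the threshold of B-cell activation, was highest at 0.39 ± 0.17, with 46.8 and 42.1 in CSH71-treated and 32.7 and 27.8 in untreated cells (limma adjusted p = 0.990). FCRL4 was lowest. MS4A1, which encodes CD20, and CD79A and CD79B, the receptor's signalling chains, had no probe set under their symbols in the annotation used and were not analysed here.

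B-cell receptor signalling genes were measured for 15 of 23 listed, with 0 past the threshold and a median of 0.0070. The highest was BCL10, an adaptor on the way to NF-κB, at 0.25 ± 0.18, and the lowest SH3BP5, an inhibitor of the kinase BTK, at -0.44 ± 0.16. SH3BP5 had 459 and 460 in CSH71-treated cells, against 630 and 629 in untreated cells, so that its replicates were nearly equal (limma adjusted p = 0.930, unadjusted p = 0.0315). BTK was at 0.096 ± 0.24, the adaptor BLNK at 0.15 ± 0.25 and SYK, the kinase that binds the receptor's phosphorylated tails, at -0.24 ± 0.43. SYK had 20.7 and 82.3 in CSH71-treated cells, against 46.9 and 64.02 in untreated cells, so its treated arrays enclosed the untreated ones.

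Known targets of PAX5 were read in both directions, without a test of either list. Of 15 listed genes that PAX5 activates in B cells 10 were measured, with 0 past the threshold and a median log2 fold change of -0.043. BLK was the lowest of them, CR2 the highest. Of 11 listed genes that it represses 8 were measured, again with 0 past the threshold and a median of -0.024, from CSF1R, a myeloid receptor, at -0.14 ± 0.22 to CD28, the T-cell co-stimulator, at 0.14 ± 0.24. GATA3, the repressed-list gene with the smallest p, had 2555 and 2296 in CSH71-treated cells, against 2213 and 2259 in untreated cells, a log2 fold change of 0.11 ± 0.17.

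BLK was also read among 20 genes listed for aberrant expression in CTCL, of which 16 were measured and 0 passed. Their median log2 fold change was -0.030. The list does not separate genes gained from genes lost in CTCL, so its median and order give no direction of aberration. BLK had the lowest log2 fold change of the 16. STAT4, a transcription factor of helper T cells, had the highest at 1.08 ± 0.19, with 464 and 367 in CSH71-treated cells, against 175 and 200 in untreated cells (limma adjusted p = 0.517). STAT4 passed under 4 of 15 alternatives, with adjusted p-values from 8.78e-05 to 1.

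Markers of the labelled cell type were read as well, which is no check of it, since probe sets differ in their probes. T-cell markers were measured for 15 of 20 listed, with mean intensities over the 4 arrays from 76.1 for CD2 to 3522 for LEF1, and a summed signal of 14704 and 13864 in CSH71-treated and 14544 and 14881 in untreated cells. CD2, CD28 and CD8A were below the median gene of the array, which was at 139, with CD28 at 80.6. The other measured genes of the list were above it, with CD4 at 420. CD3D, CD3E and CD3G were not analysed here. None of the 15 passed between the groups, and the extremes were CD5, a T-cell surface receptor, at 0.21 ± 0.17 and CD247, the receptor's zeta chain, at -0.30 ± 0.18.

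B-cell markers other than the members were measured for 5 of 11 listed, VPREB3, CR2, BANK1, BLNK and EBF1. Their mean intensities ran from 20.7 for BANK1, an adaptor of B-cell signalling, to 144 for EBF1, and their summed signal was 292 and 356 in CSH71-treated cells, against 330 and 227 in untreated cells. None of the 5 was listed at 0 on any array. Their log2 fold changes were all above 0, from 0.095 for BANK1 to 0.39 for CR2. Those of the members were all below 0, and 0 of either set passed. With 1 array left out, the sign of BANK1, BLNK and EBF1 changed in some fits, as did that of PAX5 and CD22. CR2, BLK and FCRL1 kept theirs, as any gene must whose groups do not overlap, which was so for 31.6% of all genes. For scale, the 19 measured genes of non-lymphoid tissues had mean intensities from 21.3 for PRM1 to 271 for MBP, which also has lymphoid transcripts, with a median of 75.1. Probe sets differ in their probes, so these ranges do not order RNA levels.

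Markers of plasma, myeloid and natural killer cells were given the same reading, and 0 of 15 measured genes in these 3 lists passed. Plasma-cell genes had 4 of 7 measured, from MZB1, a chaperone of antibody assembly, at -0.29 ± 0.18 to XBP1, a factor of secretory cells, at -0.058. Their sum was 1714 and 1475 in CSH71-treated and 1694 and 1801 in untreated cells. Myeloid genes had 7 of 11 measured, from S100A9 at -0.23 to LYZ at 0.23, with sums of 552 and 652 in CSH71-treated and 726 and 544 in untreated cells. Natural killer genes had 4 of 7 measured, from NCAM1 at -0.43 to GNLY at 0.23, with sums of 1032 and 1014 in CSH71-treated and 1001 and 972 in untreated cells. Both groups were the same cell line, so these sums do not count plasma, myeloid or natural killer cells. In bulk RNA, a difference in every cell of the line and a difference in some of its cells cannot be told apart.

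The genes whose pattern over the 4 arrays was most like each member were taken by Euclidean distance of log2 values after each gene was centred on its own mean. Centring was added after seeing the data, because the uncentred distance sets levels of different probe sets against each other, and 0 of the 12 genes were the same without it. SURF2, HACL2 and CIAO3 were nearest to BLK, at distances of 0.013, 0.028 and 0.029. SURF2 had 398 and 376 in CSH71-treated cells, against 469 and 505 in untreated cells, so its groups did not overlap, like those of BLK. DPEP2, BTNL9 and DDX53 were nearest to PAX5 (0.030, 0.032 and 0.032), and REDIC1, BARX2 and TPD52L3 to CD22 (0.034, 0.037 and 0.046). KCNIP2 (0.011), CFAP36 (0.015) and NUP153 (0.016) were nearest to FCRL1. With 4 arrays and 14884 genes such likeness is a description of signals. These genes were chosen for having nearly the centred values of their member. That SURF2 did not overlap, like BLK, and that 0 of these 12 genes passed the threshold, both follow from this choice.

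Across the ways of processing the table, BLK and FCRL1 kept a negative log2 fold change under each alternative in which they were fitted. For FCRL1 it ran from -0.16 to -0.078. The groups of both genes did not overlap, so no pseudocount or left-out array could change these signs. The sign of PAX5 and CD22 changed only where an array was left out. The limma adjusted p of each member stayed above the threshold throughout, from 0.594 to 1 for BLK and from 0.748 to 1 over the other members.

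**Figure D4:**
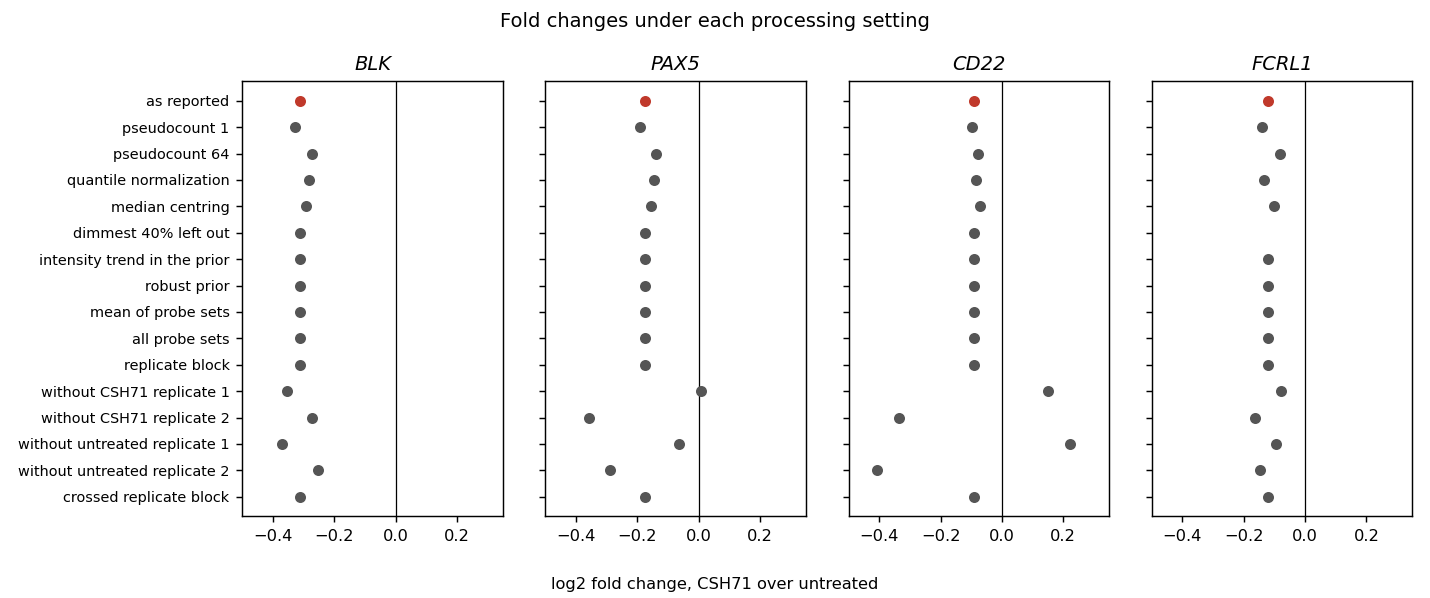
Log2 fold change of CSH71 over untreated for each member under the reported setting (red) and each alternative (grey). BLK and FCRL1 lie below 0 in each fit shown, PAX5 reaches 0.0065 without CSH71 replicate 1, and CD22 lies on both sides of 0 when arrays are left out. FCRL1 is among the dimmest 40% of genes and has no point for that setting.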

How the data were processed

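The authors deposited 1 linear intensity per probe set and array, for 2 CSH71 and 2 untreated HUT78 samples. Per the submitters' processing notes, the software was Affymetrix Expression Console. How signals were summarised, background-corrected and normalized is not given in the sources used here, nor is the version. Gene names came from the platform annotation: of 53617, 16098 had 1 symbol, 0 several and 37519 none, and all 16098 entrez identifiers matched the RefSeq table (GRCh38.p14, used for names) with 0 symbols changed. Where a gene had several, its brightest probe set on average stood for it, leaving 14884 genes.

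Values were transformed to log2(intensity + 16), not normalized again, and compared across all genes with limma 3.58.1 (R 4.3.3), with 2-sided p-values adjusted by Benjamini-Hochberg and a threshold of 0.05. An exact permutation test of 2 against 2 arrays cannot go below 0.333 and was not used. The fit was tested on simulated data. The 16 gene lists held, with the members, 203 genes, of which 138 were measured, and got counts and medians but no test. Members and lists were chosen with earlier results of these data known. Genes were named by rule: the members, their measured family members, MS4A1, CD79A, CD79B, EBF1, BLNK, BTK, SYK and LYN where measured, the smallest p, highest and lowest log2 fold change of each list, and the 3 nearest genes of each member, for which each gene was centred first. Other genes were named after their values were seen. Alternatives covered the pseudocount, normalization, a filter on dim genes, the variance prior, probe sets, the replicate block and each array left out. The number of arrays limits the precision.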

Additional observations from a re-analysis of the deposited data

How the results depend on the processing

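The direction and the side of the threshold were kept for BLK in 15 of 15 alternatives and for FCRL1 in 14 of 14. FCRL1 fell under the filter on dim genes and was not fitted there. Most of the kept directions were fixed in advance. Settings of the filter, prior, probe sets or block left the fold change of these genes as it was. Their CSH71 and untreated arrays did not overlap, so neither a pseudocount nor a left-out array could change the sign. PAX5 kept both in 14 of 15 and CD22 in 13 of 15. With each array left out in turn, PAX5 ran from -0.36 to 0.0065 and CD22 from -0.41 to 0.22. The fewer samples of these fits, in which the lone array of a group is assumed to vary like the other group, move the values by construction. The replicate block changed no member's call (BLK -0.31, limma adjusted p = 1). The same-numbered arrays share only a number, and their replicate differences correlated at -0.29 over genes. A crossed pairing, added after seeing the data, called 0 genes with limma (1288 at an unadjusted p under 0.05).

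The number of genes called by limma, 7 as reported, was 0 with a pseudocount of 1 (768 at an unadjusted p under 0.05), 33 with 64, 0 after quantile normalization (964), 27 after median centring, 11 without the dimmest 40%, 143 with an intensity trend in the prior, 0 over all probe sets (2367) and 27 with the replicate block. With 1 array left out it ran from 0 (794 at an unadjusted p under 0.05 when untreated replicate 1 was dropped, 609 when untreated replicate 2 was) to 29 (without CSH71 replicate 1), with 20 without CSH71 replicate 2. The cause was not tested. Among the other list genes named by rule, these changed sign when 1 array was left out, with lowest and highest log2 fold changes of: FCRL4 -0.59 to 0.073, FCRL6 -0.14 to 0.59, CSF1R -0.34 to 0.068, CD28 -0.16 to 0.44, BANK1 -0.29 to 0.48, XBP1 -0.18 to 0.063, LYZ -0.038 to 0.49, SRC -0.35 to 0.24, LCK -0.044 to 0.12, PAX1 -0.19 to 0.36, PAX2 -0.19 to 0.037, PAX6 -0.12 to 0.13, PAX7 -0.023 to 0.58, PAX8 -0.49 to 0.37, PAX9 -0.16 to 0.095, MAG -0.59 to 0.095, SIGLEC9 -0.15 to 0.29, SIGLEC10 -0.20 to 0.13, SIGLEC15 -0.25 to 0.42, FCRL3 -0.30 to 0.028, FCRLB -0.0083 to 0.25, EBF1 -0.10 to 0.38, BLNK -0.20 to 0.50, BTK -0.19 to 0.38, SYK -0.95 to 0.47. Genes named by rule that kept their sign in these fits but moved by over 1.5 times were: FCRL1 -0.16 to -0.078, IKZF3 -0.90 to -0.34, BCL10 0.16 to 0.34, LYN -0.64 to -0.17, PAX3 0.14 to 0.80, SIGLEC7 -0.66 to -0.20, FCRL5 -0.38 to -0.083, GATA3 0.038 to 0.19, CD247 -0.45 to -0.15, MZB1 -0.40 to -0.17, S100A9 -0.41 to -0.054, NCAM1 -0.66 to -0.21, GNLY 0.15 to 0.31, MBP -0.68 to -0.18, FRK 0.017 to 0.15, SIGLEC5 -0.41 to -0.11, SIGLEC8 -0.38 to -0.086, SIGLEC12 0.10 to 0.86, FCRL2 -0.20 to -0.056, FCRLA 0.025 to 0.33. PAX6 was also at -0.048 after quantile normalization. Depth of signal over background is unknown.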
